A study of Arabidopsis thaliana with 16 samples.

Results

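*CML37*, *CML38*, *AT1G76640* and *STZ* are 4 early stress and touch genes of *Arabidopsis thaliana*, and their transcript levels were followed through all 6 groups of the study. They were taken as a set of 3 calmodulin-like genes and 1 zinc finger regulator, with earlier results of these data known, and each is measured by 1 of the 22746 probe sets tested on the ATH1 array. *AT1G76640* also carries the name *CML39* in the RefSeq gene table. That name is a synonym of *CML37* in the same table, so the locus name is used here. *AT1G76640* and *CML38* are direct neighbors in the order of annotated genes. All plants were 4-week-old Col-0 wild type, and at least 8 plants made up each sample. The labels give leaves as the tissue of every sample, whereas the methods name leaves for the feeding experiment and only tissue for the volatile experiment. Leafminer-fed plants carried larvae of the pea leafminer, a fly whose larvae tunnel inside the leaf, and only leaves with visible damage were taken (3 samples), whereas healthy plants of the same age served as their own controls (3 samples). In a separate experiment, receiver plants stood in a glass jar in the headspace of Lima bean plants damaged by the same leafminer, for 24 h (2 samples) or 48 h (3 samples). Their controls shared a jar with undamaged Lima bean plants for 24 h (2 samples) or 48 h (3 samples).

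Calcium in the plant cytosol rises within moments of touch, wounding, cold or contact with an attacker, and proteins with EF-hand motifs bind it and pass the signal on. Calmodulin-like proteins are plant relatives of calmodulin that carry such EF-hands. *CML37*, *CML38* and *AT1G76640* encode closely related members of this family, and their transcripts are known to accumulate after mechanical and chemical stress. *CML37* is known as a positive regulator of jasmonate-dependent defense against chewing caterpillars. *STZ*, also called *ZAT10*, encodes a C2H2 zinc finger protein that represses transcription and whose transcript accumulates quickly under salt, cold, drought and wounding.

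Array medians lay between 19.2 and 30.3 on the linear scale of the deposited signals, and each array had a signal of 1 or less at 9.62% to 13.3% of its probe sets. Signals of 1 or less were set to 1 before log2 values were taken, so a change against a group near that floor is set in part by it. The number of arrays limits the precision of every value, and the replicates are described as independent samples of several plants each, without saying whether they were grown apart, so p-values reflect the spread among these samples alone. In bulk tissue, fewer cells of a type and less RNA per cell cannot be told apart. Of 25 marker genes for leaf and other tissues, 4 had a named probe set. The mesophyll gene *RCA*, which encodes Rubisco activase, gave signals of 2301 to 4836 over all 16 arrays.

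All 4 genes were strongly up-regulated in leafminer-fed leaves compared with healthy leaves. The log2 fold changes lay between 5.03 for *STZ* and 7.35 for *CML38*. A probe set was called when it passed an adjusted p of 0.05 and changed 2-fold or more; 4 of the 4 genes were called higher, against 12.8% of all probe sets. Over all probe sets the median log2 change with feeding was 0.14. For each of the 4 genes every fed sample lay above every healthy sample, which was so for 27.6% of all probe sets.

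*CML37* had signals of 75.8, 27.8 and 42.0 in the 3 fed samples, against 0.256, 1.36 and 0.341 in the healthy samples. Of the healthy samples 2 were under the floor of 1, and even the lowest fed signal was 20.4 times the highest healthy one. The log2 fold change was 5.33 (SE 0.35, 95% interval 4.56 to 6.10, adjusted p = 6.9e-07).

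*CML38*, whose protein in *Arabidopsis* is known from RNA granules formed under low oxygen, had signals of 556, 310 and 376 in fed leaves, against 6.53, 2.29 and 0.524 in healthy leaves. The healthy samples differed among themselves more than the fed ones on the log2 scale (8.65 ± 0.43 in fed leaves and 1.30 ± 1.36 in healthy leaves, SD, n = 3 each). The groups were nevertheless separated by a factor of 47.4 between the lowest fed and the highest healthy signal. The log2 fold change was 7.35 (SE 0.59, adjusted p = 2.2e-06), a size that depends in part on the floor, under which 1 healthy sample lay.

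*AT1G76640*, the neighbor of *CML38*, had signals of 114, 78.9 and 112 in fed leaves, against 1.04, 0.377 and 0.200 in healthy leaves. In healthy leaves 2 samples were below the floor and the other one was just above it, so the size of the change depends on the floor. The lowest fed signal was 75.9 times the highest healthy one. The fitted log2 fold change was 6.63 (SE 0.69, adjusted p = 1.7e-05).

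*STZ* had signals of 905, 662 and 773 in fed leaves, against 30.9, 26.0 and 16.5 in healthy leaves. *STZ* was the only one of the 4 genes with all healthy signals well above the floor, and its fed and healthy groups were 21.4-fold apart at their nearest samples. The log2 fold change was 5.03 (SE 0.35, adjusted p = 8.6e-07).

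**Figure D1:**
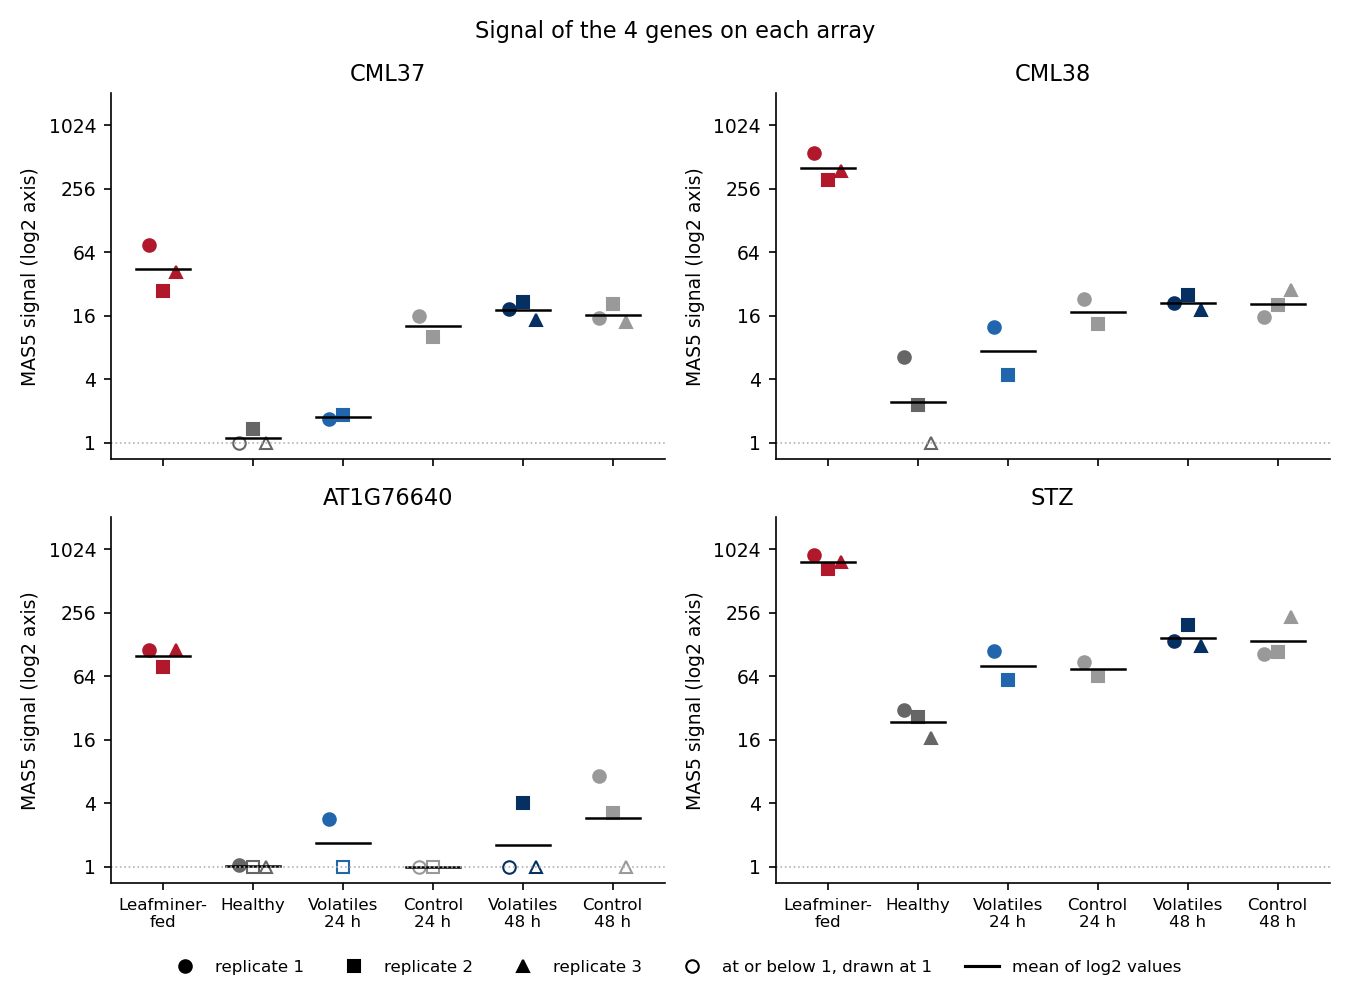
Deposited MAS5 signal (log2 axis) of the 4 genes on each of the 16 arrays, by group, with replicates as symbols, open symbols for signals of 1 or less drawn at 1, and a line at the mean of the log2 values. The fed samples lie above all other samples for every gene, and for *CML37* the 24 h volatile samples (1.68 and 1.86) lie near the healthy samples and not near their own controls (16.0 and 10.2).

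Within the fed group the 4 genes ranked the samples alike: replicate 1 was highest and replicate 2 lowest for each of them. The medians of the fed arrays were 27.8, 27.7 and 29.4, and did not follow that order. All 4 genes stayed called when any of the 6 arrays was left out. With 16 added to each signal before the logarithm, which damps changes of weak signals, the log2 fold changes were 1.89 for *CML37*, 4.46 for *CML38*, 2.82 for *AT1G76640* and 4.30 for *STZ*, and all 4 genes remained called. Markers of other tissues also differed in this comparison. *PYK10*, a beta-glucosidase of ER bodies known mainly from roots and the only one of 3 root markers with a named probe set, gave 513 to 1054 in fed leaves and 71.7 to 116 in healthy leaves (log2 fold change 3.18, SE 0.31, adjusted p = 9.0e-06), and the guard cell marker *AT1G22690* gave 74.8 to 230 in fed leaves and 278 to 347 in healthy leaves (-1.30, SE 0.32, adjusted p = 0.0087). The other guard cell marker, *FMA*, gave 32.7 to 36.6 in fed leaves and 32.6 to 46.2 in healthy leaves and was not called (-0.17, SE 0.21, adjusted p = 0.61), nor was *RCA* (-0.06, SE 0.15, adjusted p = 0.85). Their part in the result was not tested.

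After 24 h of exposure to volatiles of damaged Lima bean, none of the 4 genes was called in either direction. Calls were rare at this time, with 0.0176% of all probe sets called, while 12.6% had an unadjusted p under 0.05. *CML37* came nearest to a call, at a lower level in exposed plants. Its signals were 1.68 and 1.86 in the volatile samples, against 16.0 and 10.2 in the 24 h control samples. The groups did not overlap, and the highest volatile signal was 0.183 times the lowest control signal; among all probe sets, 6.6% had volatile samples all below the controls. The log2 fold change was -2.85 (SE 0.43, 95% interval -3.80 to -1.91, adjusted p = 0.070).

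The *CML37* difference at 24 h ranked 8 of 22746 by unadjusted p. The call depended on the scaling of the arrays. Over all probe sets the median log2 change at 24 h was 0.31, and with that shift removed *CML37* was called lower, at -3.16 after median scaling (adjusted p = 0.028) and -3.00 after quantile normalization (adjusted p = 0.027). With 16 added to the signals the difference was -0.70 (adjusted p = 0.44), and all 4 arrays gave signals of at most 16.0 for this gene.

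*CML38* had signals of 12.7 and 4.40 in the 24 h volatile samples, against 23.1 and 13.3 in the controls. The groups did not overlap, but the volatile samples differed from each other by more than the gap to the controls, and the log2 difference of -1.23 (SE 0.72) did not pass the test (adjusted p = 0.47) and lay between -1.99 and -0.47 when 1 array was left out. *AT1G76640* was at 2.83 and 0.236 in volatile samples, against 0.232 and 0.252 in controls, so 3 of the 4 arrays were below the floor. Its log2 difference was 0.75 (SE 0.85, adjusted p = 0.68), and between 0 and 1.50 with 1 array left out. *STZ* overlapped between the groups, with 111 and 58.8 in volatile samples, against 86.5 and 64.0 in controls (0.12, SE 0.43, adjusted p = 0.94).

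After 48 h of exposure the volatile and control samples of all 4 genes overlapped, and none was called, against 0.765% of all probe sets called and 13.2% with an unadjusted p under 0.05. *CML37* had 18.7, 21.7 and 14.5 in volatile samples, against 15.4, 20.8 and 13.9 in 48 h controls. The volatile level of this gene was therefore close to the control level at 48 h (0.13, 95% interval -0.64 to 0.90, adjusted p = 0.94). *CML38* had 21.0, 25.4 and 18.3 in volatile samples, against 15.5, 20.5 and 28.0 in controls, a log2 difference of 0.05 (95% interval -1.23 to 1.32, adjusted p = 1).

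*STZ* had 137, 195 and 123 in the 48 h volatile samples, against 105, 109 and 233 in controls, with 1 control sample above all others. The log2 difference was 0.10 (95% interval -0.66 to 0.86, adjusted p = 0.96). *AT1G76640* remained near the floor, with 0.382, 4.05 and 0.728 in volatile samples, against 7.32, 3.24 and 0.415 in controls (-0.85, 95% interval -2.35 to 0.65, adjusted p = 0.68, and -1.61 to -0.18 with 1 array left out). The intervals of *CML37* and *STZ* leave room for changes of less than 2-fold in either direction. That of *CML38* leaves room for larger ones in either direction. For *AT1G76640* the interval leaves room for a decrease of more than 2-fold but not for such an increase.

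The difference between the 48 h and the 24 h response was tested as an interaction, in which 0.022% of all probe sets were called (7.67% at an unadjusted p under 0.05) and none of the 4 genes. *CML37* had a log2 difference between the responses of 2.99 (SE 0.56, adjusted p = 0.17), which ranked 23 of all probe sets by unadjusted p. The values were 1.28 for *CML38* (SE 0.93, adjusted p = 0.72, and 0.51 to 2.04 with 1 array left out), -1.60 for *AT1G76640* (SE 1.09, adjusted p = 0.71) and -0.02 for *STZ* (SE 0.55, adjusted p = 1). The 24 h and 48 h responses of these genes are thus not shown to differ. The controls themselves did not pass a test between 48 h and 24 h, where 0.0132% of all probe sets were called and 6.92% had an unadjusted p under 0.05. Their log2 differences were 0.37 for *CML37* (SE 0.40), 0.24 for *CML38* (SE 0.66), 1.52 for *AT1G76640* (SE 0.77, adjusted p = 0.74) and 0.90 for *STZ* (SE 0.39, adjusted p = 0.72).

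**Figure D2:**
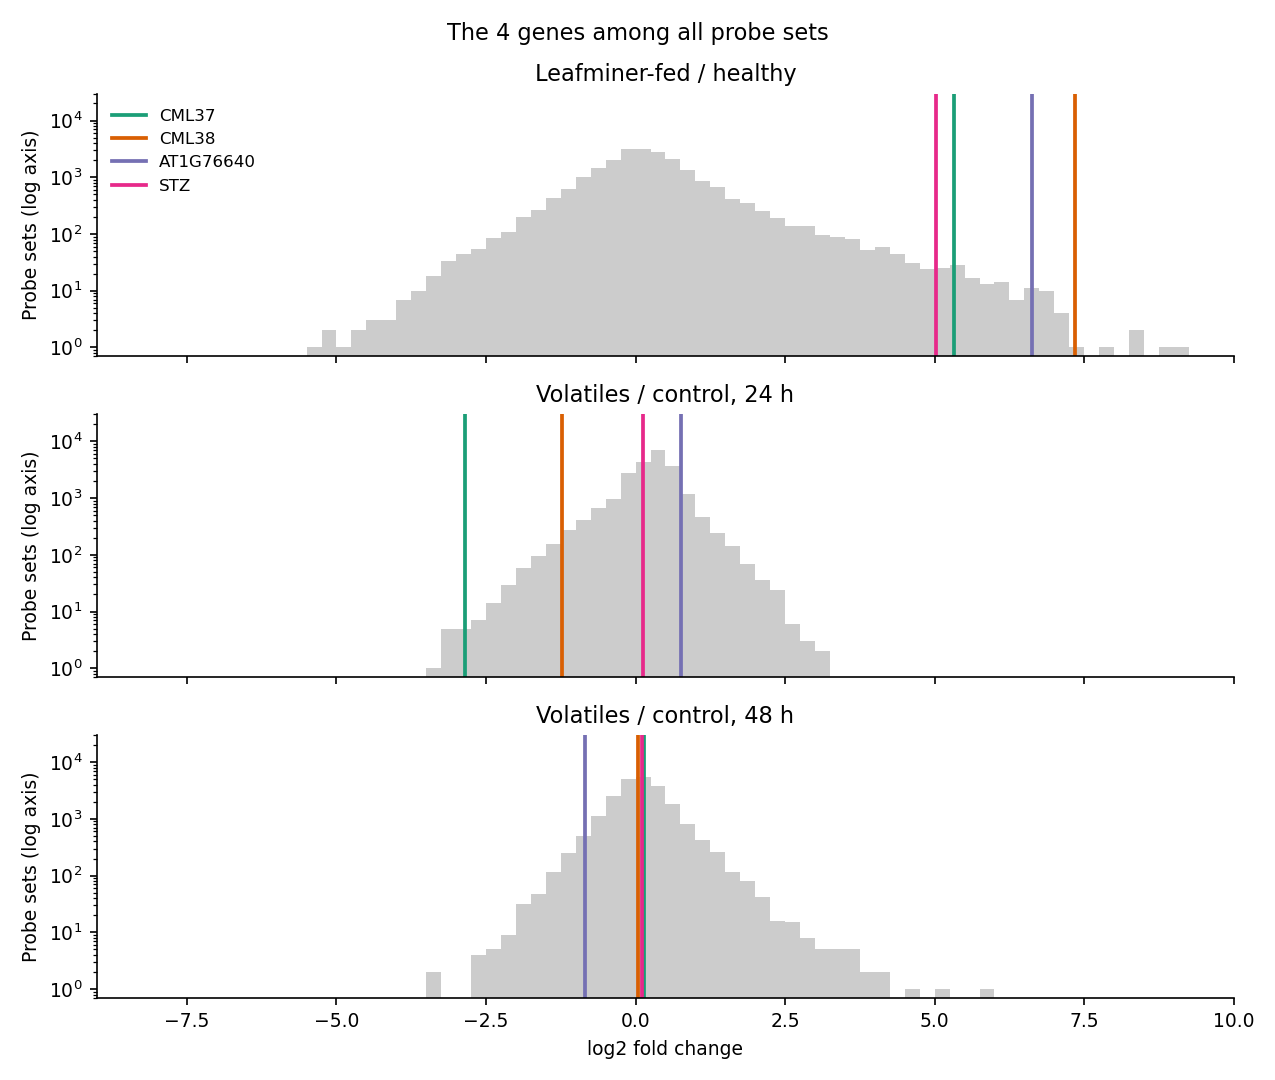
Histograms of the log2 fold change of all 22746 probe sets (log axis of probe sets) in 3 comparisons, with a colored line at each of the 4 genes. With feeding all 4 lines lie in the upper tail (5.03 to 7.35), at 24 h *CML37* lies in the lower tail (-2.85), and at 48 h the lines lie between -0.85 and 0.13.

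The study asked how feeding and volatile exposure compare, and the 2 experiments share no samples. Fed leaves were taken once the larvae had reached the second instar, and only damaged leaves were chosen. The 2 responses are thus not matched in time or in the choice of tissue. The feeding response exceeded the 48 h volatile response for all 4 genes, by 5.20 log2 units for *CML37* (SE 0.50, adjusted p = 5.1e-05), 7.30 for *CML38* (SE 0.83, adjusted p = 0.00013), 7.48 for *AT1G76640* (SE 0.98, adjusted p = 0.00030) and 4.93 for *STZ* (SE 0.49, adjusted p = 5.9e-05). Called higher in this test were 8.8% of all probe sets. Each difference includes the gap between the 2 sets of controls. Mean log2 signals follow in the order fed, healthy, 48 h volatile and 48 h control. They were 5.48, 0.15, 4.17 and 4.04 for *CML37* and 8.65, 1.30, 4.42 and 4.37 for *CML38*. For *AT1G76640* they were 6.65, 0.02, 0.67 and 1.52, and for *STZ* 9.60, 4.57, 7.22 and 7.11. Some healthy samples of *CML37*, *CML38* and *AT1G76640* were under the floor of 1, as were some jar samples of *AT1G76640*. All 4 genes stayed called when any of the 12 arrays was left out.

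The controls of the volatile experiment did not have the low levels of healthy plants. Receivers kept with undamaged Lima bean plants had higher *CML37*, *CML38* and *STZ* than the healthy plants of the feeding experiment, at 24 h and at 48 h. For *CML37* the controls gave 10.2 to 16.0 at 24 h and 13.9 to 20.8 at 48 h, and the healthy samples at most 1.36. The groups did not overlap, as for 16.1% of all probe sets at 24 h and 15.4% at 48 h with the controls higher, and the log2 differences were 3.52 at 24 h (SE 0.40, adjusted p = 6.9e-05) and 3.89 at 48 h (SE 0.35, adjusted p = 1.6e-05). Called higher over healthy plants were 5.11% of all probe sets for the 24 h controls and 7.07% for the 48 h controls. Over all probe sets the median log2 difference was -0.23 for the 24 h controls and -0.11 for the 48 h controls.

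*CML38* was higher by 2.83 in the 24 h controls (SE 0.66, adjusted p = 0.0079) and by 3.07 in the 48 h controls (SE 0.59, adjusted p = 0.0024) than in healthy plants. *STZ* was higher by 1.65 at 24 h (SE 0.39, adjusted p = 0.0088) and by 2.55 at 48 h (SE 0.35, adjusted p = 0.00027). Without replicate 1 of the 24 h controls, *CML38* (adjusted p = 0.080) and *STZ* (adjusted p = 0.084) were no longer called at 24 h. *AT1G76640* was not called in either comparison, with differences of -0.02 (SE 0.77, adjusted p = 1) and 1.50 (SE 0.69, adjusted p = 0.13). Without replicate 3 of the 48 h controls, it was called at 48 h (2.27, adjusted p = 0.024). With 16 added to the signals, *CML37* (0.80 at 24 h, 0.97 at 48 h) and *CML38* (0.84 and 0.96) differed by less than 2-fold and were not called, while *STZ* remained called at both times. With only the arrays of each comparison in the fit, *CML38* (adjusted p = 0.12) and *STZ* (adjusted p = 0.051) were not called at 24 h, nor was *CML38* at 48 h (adjusted p = 0.052).

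The jar setup, the experiment and the Lima bean neighbors differ between these controls and the healthy plants, and cannot be told apart. Age at harvest may differ as well, since healthy plants matched the age of fed plants taken at the second instar. The methods name leaves only for the feeding experiment, so the tissue may also differ. *PYK10* moved with the same contrast, at 1002 to 1187 in the 24 h controls, 697 to 1365 in the 48 h controls and 71.7 to 116 in healthy plants (log2 differences 3.69 and 3.40). *RCA* was lower in the jar controls, at 2588 to 2922 at 24 h and 2617 to 3088 at 48 h, against 4469 to 4800 in healthy plants, with log2 differences of -0.77 (adjusted p = 0.0068) and -0.71 (adjusted p = 0.0053) that were under 2-fold. *FMA* was lower at 24 h in the same way (-0.85, adjusted p = 0.018; -0.38 at 48 h, adjusted p = 0.20), and *AT1G22690* did not pass the test (0.02 and -0.04). The part of these markers in the result was not tested.

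**Figure D3:**
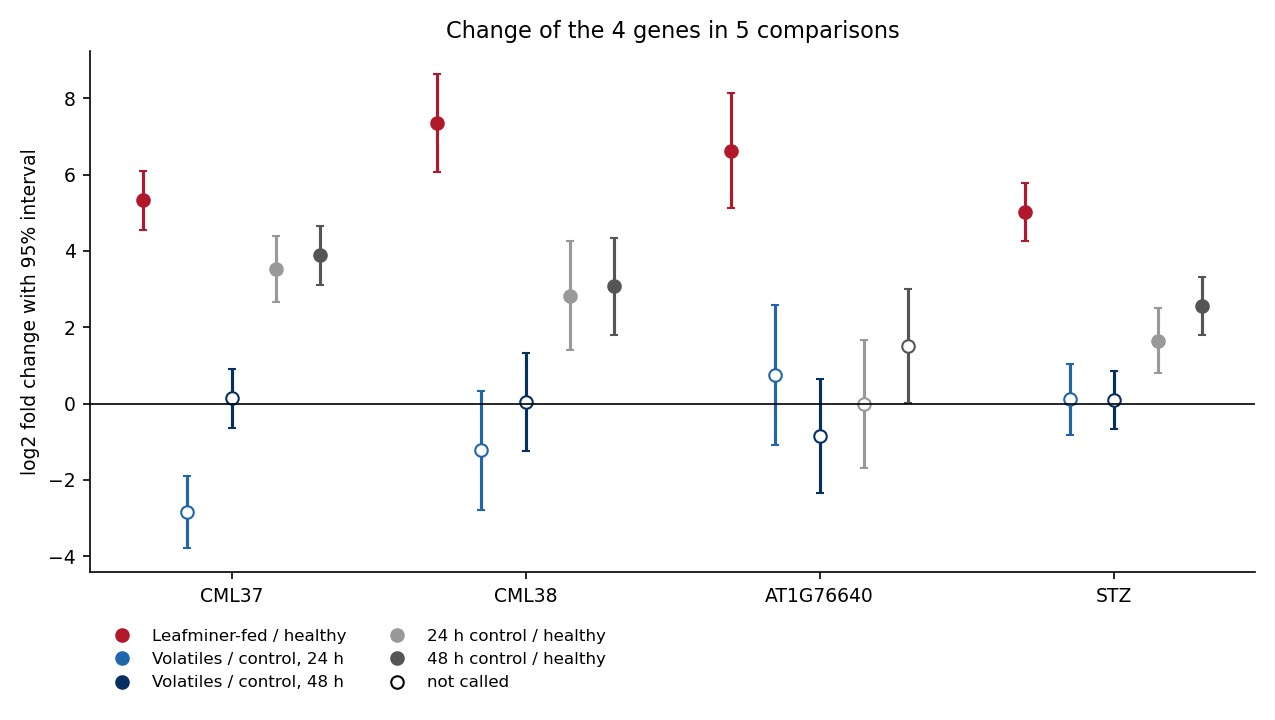
Log2 fold change of the 4 genes with its 95% interval in 5 comparisons (fed over healthy, volatiles over control at 24 h and 48 h, and the 24 h and 48 h controls over healthy), with filled points for called changes and open points for changes not called. Fed leaves lie between 5.03 and 7.35 above healthy leaves for all 4 genes, and the jar controls lie between 1.65 and 3.89 above healthy leaves for *CML37*, *CML38* and *STZ*.

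Over the 6 groups, the fed samples were highest and did not overlap the next group for any of the 4 genes. How many of all probe sets show such an order or such separations over the 6 groups was not counted. For *CML37* the mean log2 signals were 5.48 in fed leaves, 4.17 in 48 h volatile samples, 4.04 in 48 h controls, 3.67 in 24 h controls, 0.82 in 24 h volatile samples and 0.15 in healthy leaves. The 48 h volatile, 48 h control and 24 h control samples overlapped as neighbors in that order. The 24 h volatile samples were separated from the groups on both sides, although by a narrow margin from healthy leaves (1.68 against 1.36 at the nearest samples). On every volatile, control and healthy array the *CML37* signal was below the median of its array.

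*CML38* followed the same order, with means of 8.65 in fed leaves, 4.42 in 48 h volatile samples, 4.37 in 48 h controls, 4.13 in 24 h controls, 2.90 in 24 h volatile samples and 1.30 in healthy leaves. Here the 24 h volatile samples overlapped the healthy ones. *STZ* differed from both in the place of the 24 h volatile samples: the 4 jar groups, with means from 6.22 to 7.22, overlapped as neighbors and lay apart from fed leaves (9.60) on one side and from healthy leaves (4.57) on the other. For *AT1G76640* the means of the 5 other groups lay between 0 and 1.52, all of them overlapped as neighbors, and only fed leaves stood apart (6.65 ± 0.30, SD, n = 3).

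The other genes of the calcium-sensing family were read from a list of 47 calmodulin and calmodulin-like loci without the 3 genes above, of which 29 had a named probe set. With feeding 11 were called higher and 1 lower (of all probe sets 12.8% were called higher and 6.49% lower). The median log2 change of the 29 was 0.76, beside 0.14 for all probe sets. The largest change was at *AT3G01830*, with signals of 470, 228 and 317 in fed leaves, against 11.0, 5.96 and 4.42 in healthy leaves. These samples did not overlap, and the log2 fold change was 5.61 (SE 0.66, adjusted p = 4.5e-05). Next came *AT1G21550* (3.35, SE 0.60, adjusted p = 0.0010), *AT3G10300* (3.25, SE 0.21, adjusted p = 6.6e-07) and *AT1G18210* (2.62, SE 0.19, adjusted p = 1.2e-06). *CML42*, a negative regulator of jasmonate-dependent herbivore defense that also shapes trichome branching, was among the called genes (1.33, SE 0.26), as was *CML41* (1.82, SE 0.52), whose product acts at plasmodesmata during immune responses. *AT2G41090* was the gene called lower (-1.19, SE 0.22, adjusted p = 0.0011).

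None of the 29 family genes was called at 24 h or 48 h of exposure, where 0.0176% and 0.765% of all probe sets were called. A count of none among 29 is near those shares. The family medians were 0.23 at 24 h and 0.09 at 48 h, beside 0.31 and 0.07 for all probe sets. The smallest unadjusted p at 24 h belonged to *AT3G01830*. Its signals were 14.0 and 1.52 in volatile samples, against 39.9 and 19.7 in controls. The volatile samples lay below the controls, as for 6.6% of all probe sets, but the difference of -2.60 (SE 0.81) did not pass the test (adjusted p = 0.34). *AT1G18210* was second at 24 h (0.70, SE 0.23, adjusted p = 0.35) and had the smallest unadjusted p at 48 h (0.74, SE 0.19, adjusted p = 0.097), followed there by *AT2G41410* (0.74, SE 0.23, adjusted p = 0.17). In the jar controls over healthy plants, 2 family genes were called higher and 5 lower at 24 h, and 6 higher and none lower at 48 h. Of all probe sets, 5.11% were called higher and 12.5% lower at 24 h, and 7.07% higher and 9.72% lower at 48 h. The 24 h split turned to 8 higher and 2 lower after quantile normalization.

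**Figure D4:**
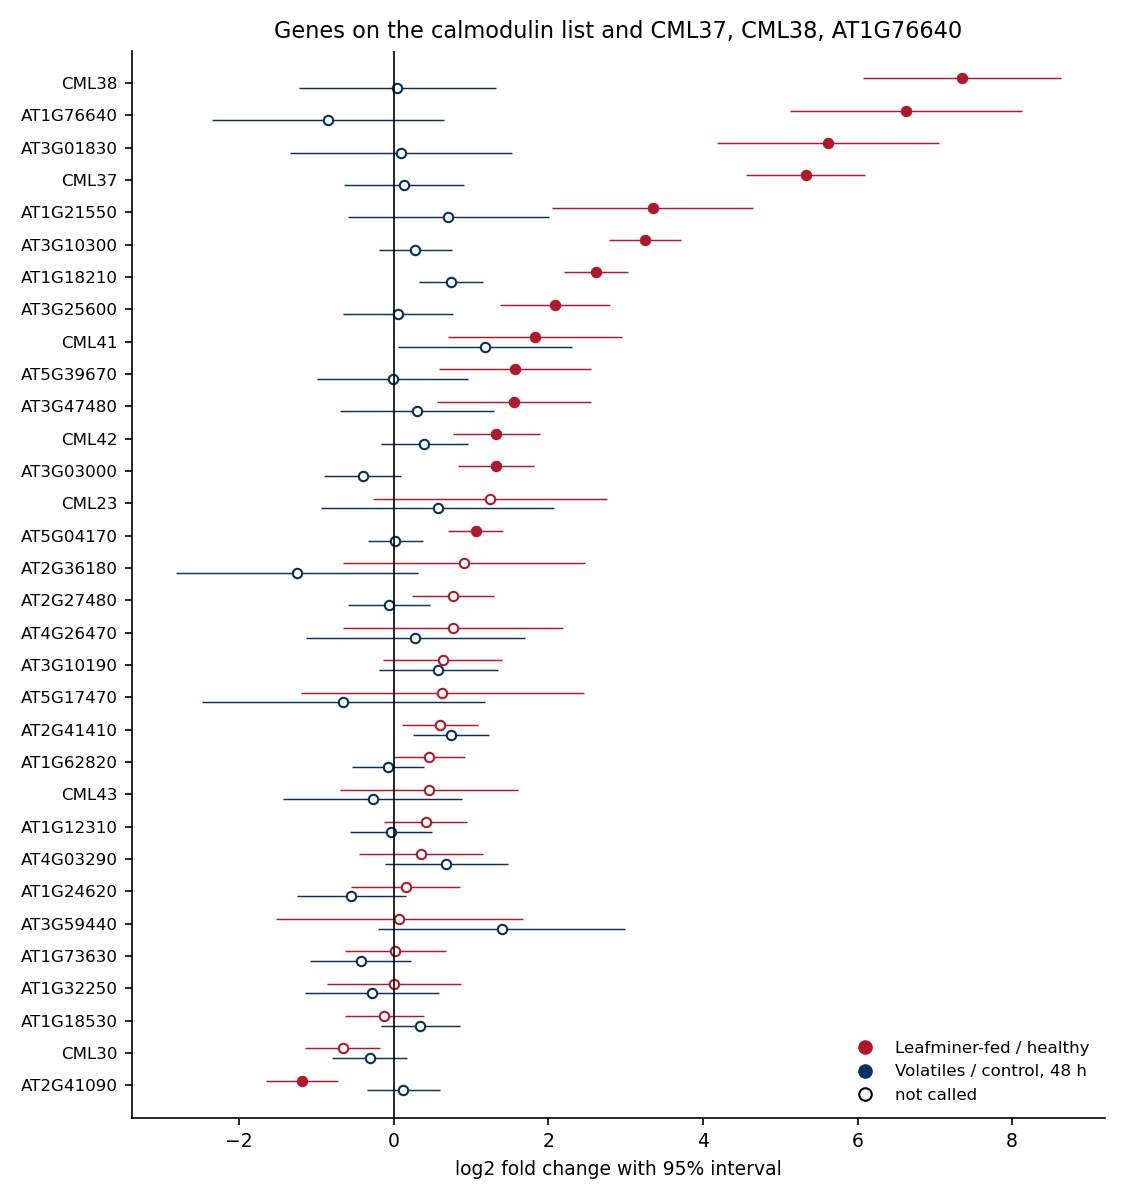
Log2 fold change with its 95% interval for 29 genes on the calmodulin list together with *CML37*, *CML38* and *AT1G76640*, for fed over healthy (red) and for volatiles over control at 48 h (blue), with open points for changes not called. *CML38*, *AT1G76640*, *AT3G01830* and *CML37* lie between 5.33 and 7.35 with feeding, sizes that depend in part on the floor of 1 in healthy leaves for *CML37*, *CML38* and *AT1G76640*, and no gene is called at 48 h.

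Few other early stress genes on the lists had a named probe set. Of 10 C2H2 zinc finger genes related to *STZ* 2 were measured, and with feeding *AT3G53600* was called higher (4.74, SE 0.38, adjusted p = 2.5e-06) and *AT2G28200* lower (-1.99, SE 0.30, adjusted p = 0.00029). *AT3G53600* was at the floor in all healthy samples, so its change has no exact size. Of 37 early wound, touch and cold regulators 4 were measured, and all 4 were called higher with feeding, against 12.8% of all probe sets (6.49% were called lower). The 4 genes were *WRKY53* (3.44, SE 0.45), a transcription factor of leaf senescence, and the U-box ubiquitin ligases *PUB23* (3.04, SE 0.32), *PUB24* (2.82, SE 0.32) and *PUB22* (1.27, SE 0.36), which dampen immune responses. Of 30 calcium transport and calcium-dependent kinase genes 2 were measured. The glutamate receptor-like channel gene *GLR3.6*, which takes part in long-distance wound signaling, was called lower with feeding (-2.29, SE 0.34, adjusted p = 0.00027). The other, *GLR3.3*, was not called, although its fed samples lay higher. Its signals were 70.4, 77.3 and 76.7 in fed leaves, against 47.0, 34.0 and 50.6 in healthy leaves. None of these 8 genes was called at 24 h or at 48 h, where 0.0176% and 0.765% of all probe sets were called.

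The likeness of profiles was described by Pearson's r of log2 signals over the 16 arrays, among 5939 probe sets with 1 gene each and a mean log2 signal of at least 4.61. Arrays of 1 group share their treatment and experiment, and the 3 fed arrays lie far from the rest, so r was also taken over the other 13 arrays. *STZ* and *CML38* were most alike among the 4 genes (r = 0.97 over 16 arrays, 0.92 over 13), and *CML37* correlated with *CML38* at 0.85 over either set. *AT1G76640* correlated with *STZ* at 0.83 over 16 arrays and at 0.39 over 13. On most of those 13 arrays its signal was under the floor of 1, and on none was it above 7.32, so r over them describes weak signals.

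The probe set most like *CML37* was *AT4G39670* (r = 0.95, and 0.94 without the fed arrays), followed by *AT1G19020* (0.92), *AT1G57630* (0.91), *AT1G56060* (0.90) and the calmodulin-like list gene *AT3G01830* (0.89). *AT4G39670* and *AT1G57630* had lower mean levels in the 24 h volatile samples than in controls, with log2 differences of -2.06 (adjusted p = 0.35) and -2.04 (adjusted p = 0.39). The differences were -2.60 for *AT3G01830* (adjusted p = 0.34), -1.16 for *AT1G56060* (adjusted p = 0.37) and only -0.51 for *AT1G19020* (adjusted p = 0.60). None passed the test. The 24 h arrays were among those by which these genes were picked as most like *CML37*. A shared decrease there thus follows in part from the choice. *CML38* was most like *AT3G51660* (0.98), the glutaredoxin gene *GRX480* (0.98), *AT3G56880* (0.97), *STZ* (0.97) and *AT2G18690* (0.97). *STZ* was most like *AT3G51660* (0.99), *AT3G56880* (0.99), *AT2G18690* (0.98), *AT4G17720* (0.98) and *AT1G18390* (0.98), and the first of these kept its lead over 13 arrays (0.98). *AT1G76640* was most like *AT2G27500* (0.96), *AT1G78210* (0.96), *AT4G17470* (0.95), *OPCL1* (0.94), which encodes a CoA ligase of jasmonate synthesis, and *AT3G10260* (0.94). Without the fed arrays its highest r was 0.75, over arrays on most of which its signal was under the floor of 1. Its likeness to other genes thus rested on the 3 fed arrays.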

How the data were processed

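Transcript levels were measured on 16 ATH1 arrays, 1 per sample. The authors computed signal intensity values with MAS5 and deposited them on a linear scale; the scaling target, and whether the later normalization of their methods was applied, are not given in the sources used here, and detection calls were not used. The 64 control probe sets among 22810 were dropped. Signals under 1 were raised to 1 and put on the log2 scale with no further scaling. The 6 group means were fitted with limma 3.58.1 (R 4.3.3, variance trend), and each of 8 comparisons was adjusted over 22746 probe sets by the Benjamini-Hochberg method. SE is the moderated standard error. The SAM test of the methods, which permutes the samples, was not rerun. The fit was tested on simulated data. Python 3.11.15 with matplotlib 3.10.9 made the plots.

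Probe sets were named from the platform annotation supplied for the series (13513 with 1 gene, 503 with several, 8730 not listed), and 13436 of the genes were matched by locus to the RefSeq table of TAIR10.1, used for names and neighbors only. List genes with no symbol there are given by locus. The 4 genes are described in every comparison. Of each list, up to 4 called members with the largest change are given with values (or the 2 with the smallest unadjusted p where none was called), and of each of the 4 genes the 5 most alike probe sets. *CML41*, *CML42* and the further values of *AT4G39670*, *AT1G57630*, *AT1G56060* and *AT1G19020* were added after the values were seen. The genes, lists and tests were chosen with earlier results of these data known. Alternatives were quantile normalization, median scaling, 16 added before the logarithm, a filter that kept the brightest 60% of probe sets, the arrays of each comparison alone, a block for the replicate number, no variance trend, no fold threshold and leaving out each array; likeness without the fed arrays was added after the data were seen.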

Additional observations from a re-analysis of the deposited data

Results flagged for a closer look

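The response to feeding and the response to 48 h of volatiles differed for all 4 genes in a test of the difference itself (limma, fed over healthy minus volatiles over control, no samples shared). The log2 differences were 5.20 for *CML37* (adjusted p = 5.1e-05), 7.30 for *CML38* (adjusted p = 0.00013), 7.48 for *AT1G76640* (adjusted p = 0.00030) and 4.93 for *STZ* (adjusted p = 5.9e-05). In each case all 3 fed samples lay above all 3 healthy samples, as for 27.6% of all probe sets. The 48 h volatile and control samples overlapped. Of all probe sets, 8.8% were called higher in this test. The gap between the 48 h controls and the healthy plants is part of each difference. That gap was 3.89 for *CML37*, 3.07 for *CML38*, 1.50 for *AT1G76640* and 2.55 for *STZ*.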

How the results depend on the processing

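The calls of all 4 genes with feeding, and of feeding over the 48 h volatile response, held under every alternative in which the genes were tested. The upper 60% of probe sets by signal holds 2 of the 4 genes (not *CML37* and *AT1G76640*), so the count called higher was 2 in both. At 24 h *CML37* was called lower after quantile normalization (-3.00), median scaling (-3.16) and without a variance trend (-2.85, adjusted p = 0.036), each giving 1 of the 4 genes called, and was not called with the arrays of 24 h alone (adjusted p = 0.18). For *STZ* the sign changed at 24 h (-0.24 quantile, -0.19 median scaling), between 48 h and 24 h (0.25 and 0.19) and at 48 h (-0.0016, median scaling), as it did for *CML38* at 48 h (-0.070 and -0.056); none of these was called in either setting. With 16 added to the signals, the controls over healthy plants fell below 2-fold for *CML37* (0.80 at 24 h, 0.97 at 48 h) and *CML38* (0.84 and 0.96), leaving 1 gene called higher. With own arrays only, *CML38* (2.83, adjusted p = 0.12) and *STZ* (1.65, adjusted p = 0.051) were not called over healthy plants at 24 h, leaving 1, nor *CML38* at 48 h (3.07, adjusted p = 0.052). The cause was not tested.

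Leaving out each array gave 2.18 to 3.53 for *CML38* and 1.39 to 1.87 for *STZ* in 24 h controls over healthy plants (1 to 3 genes called), 0.83 to 2.27 for *AT1G76640* in 48 h controls over healthy plants, and -0.16 to 0.64 for *CML38* between the controls. It gave -0.34 to 0.58 for *STZ* at 24 h, -0.00081 to 0.30 for *CML37*, -0.16 to 0.26 for *CML38* and -0.10 to 0.48 for *STZ* at 48 h, and -0.48 to 0.44 for *STZ* between the times. Samples with the same replicate number did not deviate together (correlations of -0.01 at 24 h, -0.18 to 0.16 at 48 h and 0.018 to 0.089 with feeding). The replicate number as a block changed no call; *CML37* at 24 h had -2.85 with the block (adjusted p = 0.15). Weak signals limit *AT1G76640* and *CML37*. The floor of 1 sets part of each change of *AT1G76640*. For *CML37* and *CML38* only healthy samples were under it, so it enters only their comparisons that include healthy leaves.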
